A study of Mus musculus with 12 samples.

Results

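The 39 Hox genes of the mouse encode homeodomain transcription factors and lie in 4 clusters. They were taken from the 55228 genes of the mRNA count table by their symbols, Hox followed by the cluster letter and the paralog number, which gave 39 members. HoxA has 11 genes (chr6:52155590-52260880, GRCm38), HoxB has 10 (chr11:96194316-96368256), HoxC has 9 (chr15:102921103-103036852) and HoxD has 9 (chr2:74668310-74765142). Genes of the same paralog number in different clusters derive from one ancestral gene and often share functions. Along each cluster, low numbers are switched on early and at the head end of the embryo, and high numbers later and towards the tail, so that the combination of active Hox genes marks the position of a cell along the body axis. In the heart, genes of the lowest numbers are known from the second heart field, under the control of retinoic acid.

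The series compared embryonic epicardium (EE) at E10.5 with proepicardium (PE) at E9.5, the transient cluster of cells at the venous pole of the heart from which the epicardium forms. mRNA and small RNA were sequenced in 3 libraries per stage and assay, each from a pool of at least 5 untreated embryos. All groups carried the same allele, Wt1Cre-EGFP in the labels and Wt1GFP/+ in the study's methods, in which the reporter follows Wt1, a gene active in epicardium and in other mesothelia. EE cells were sorted by flow cytometry and PE was dissected by hand. Stage and way of collection therefore cannot be told apart in any difference below, and in bulk tissue fewer cells of a type and less RNA per cell cannot be told apart either.

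The mRNA libraries held 18464362 to 24481780 counts in EE and 23054165 to 25814015 in PE, with a count in 18763 to 23335 genes in EE and in 24520 to 24842 in PE. EE replicate 3 was the shallowest library, held a count in the fewest genes and stood apart from the others on the second principal component. Wt1 was at 52.2, 69.6 and 110 CPM in EE and at 18.8, 16.9 and 19.8 CPM in PE (CPM divide a count by the library total after TMM scaling), and 10 of 10 listed epicardial markers were higher in EE. Markers of liver bud cells summed to 146 to 560 CPM in EE and to 3771 to 6965 CPM in PE, and 10 of 10 were lower in EE. Of the gut endoderm markers, 6 of 9 tested were lower in EE. The immediate early genes that respond to cell dissociation were higher in EE for 6 of 8. The part of these differences in the Hox results was not tested.

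Hox transcripts were scarcer in EE than in PE. The 39 genes together had 179, 403 and 215 counts in EE, against 2308, 1734 and 1441 counts in PE. On the CPM scale these sums were 7.76, 17.9 and 12.3 in EE and 92.9, 67.7 and 54.0 in PE, so that the stages did not overlap and the mean was 5.66-fold higher in PE. A count in at least 1 library was found for 19 Hox genes in EE and for 31 in PE. Of the 31 genes with a count in PE, 13 were at 0 in every EE library (41.9%, against 15.7% of all genes with a count in PE). The number of Hox genes with a count per library was 15, 14 and 9 in EE and 24, 24 and 28 in PE. If every library had the total of the shallowest, 14.2, 13.8 and 9.0 would be expected in EE and 23.4, 23.2 and 26.3 in PE. The lower number in EE was thus also present at equal totals. Over all genes the number was lower in EE too, with 21608, 22840 and 18763 expected in EE and 23955, 23631 and 23879 in PE.

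**Figure D1:**
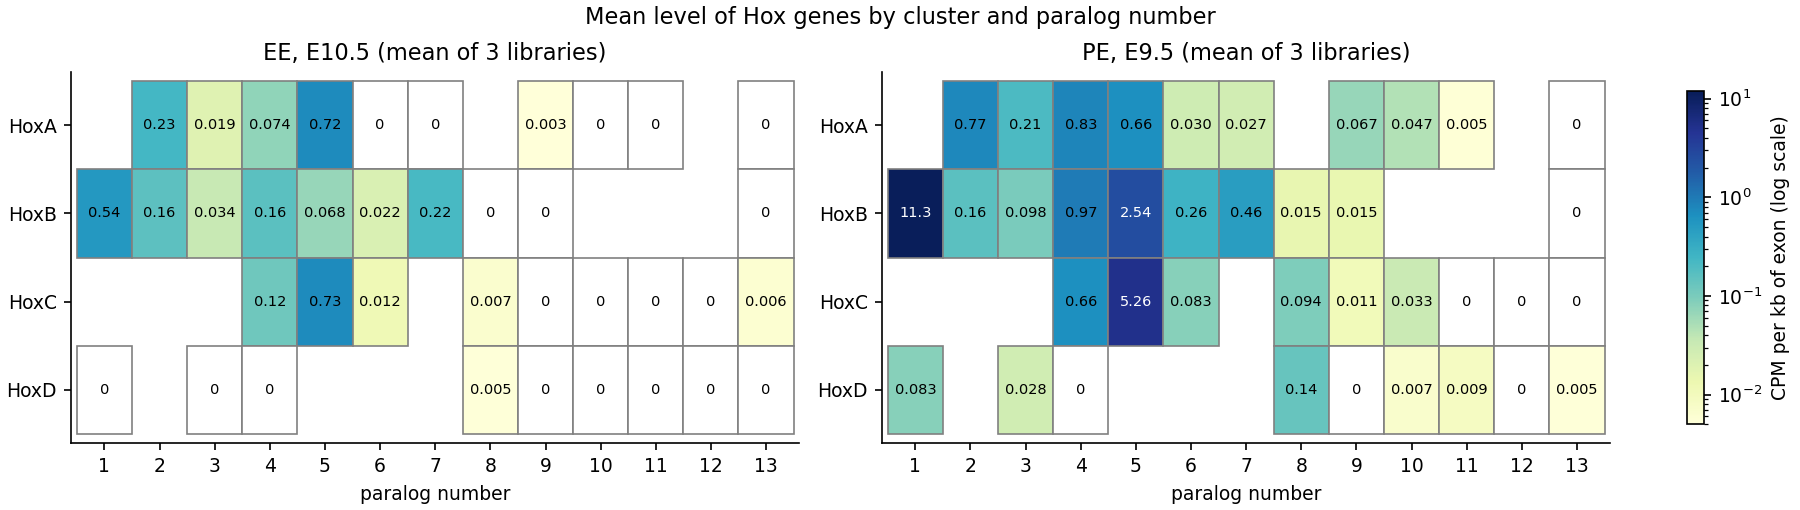
Mean level of 38 Hox genes in EE (left) and PE (right), as CPM per kb of exon on a logarithmic colour scale, by cluster (rows) and paralog number (columns). Boxes with 0 are genes without a count in any library of that stage, and empty places are numbers that the cluster lacks or that are not reported here. Hoxb1 reached 11.3 and Hoxc5 5.26 in PE, while the same genes were at 0.537 and 0.726 in EE.

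The stages were compared gene by gene with edgeR's quasi-likelihood test, which 23853 genes entered because 3 or more of the 6 libraries held a count of 1 or more. Genes counted as called when the p-value, adjusted by Benjamini and Hochberg over all of these, was under 0.05 and the log2 fold change (EE over PE) lay beyond 0.584 in either direction. The filter was passed by 21 Hox genes, 20 of them with a count in all 3 PE libraries and 6 with a count in all 3 EE libraries. Most tested members thus passed through PE, so the counts below describe them and are not evidence of a direction for the family. Of the 21, 4 were called lower in EE (19.0%, against 4.86% of all genes tested). These were Hoxb1, Hoxb5, Hoxb4 and Hoxc5. None was called higher in EE, where 4.52% of all genes were. None had a positive fold change at an unadjusted p under 0.05, and DESeq2 and limma called none higher either. The log2 fold change was negative for 20 and positive for 1, with a median of -3.31, against -0.06 over all genes tested. Every EE library was below every PE library for 15 of the 21, against 18.6% of all genes, and the stages overlapped for the other 6. For 3 of the 15, which had 0 counts in every EE library, this followed from the filter.

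Hoxb1 was the Hox gene with the highest level in PE. It specifies a segment of the hindbrain and is active in progenitors of the second heart field. It was at 0.390, 2.84 and 0.514 CPM in EE, from 9, 64 and 9 counts, against 21.9, 31.5 and 25.3 CPM in PE, from 544, 807 and 674 counts. The PE libraries lay close together, and EE replicate 2 was several times above the other EE libraries. Its fold change on the log2 scale was -4.37 ± 0.66 (SE, adjusted p = 0.0036 from edgeR) and became -5.88 without EE replicate 2 (adjusted p = 0.00103 from edgeR). Hoxb1 was called under every alternative and after leaving out any of the 6 libraries. None of its exon bases overlaps another annotated gene.

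Hoxb1 is known to maintain its own transcription in the mouse hindbrain through sites upstream of the gene that bind Hox and Pbx proteins together. The window from 250 bases before to 50 bases after its start (RefSeq, GRCm38.p6, chr11:96365508-96365807, plus strand) is shown for that reason, with a match to the Hox-Pbx motif TGATNNAT in capitals.
Hoxb1: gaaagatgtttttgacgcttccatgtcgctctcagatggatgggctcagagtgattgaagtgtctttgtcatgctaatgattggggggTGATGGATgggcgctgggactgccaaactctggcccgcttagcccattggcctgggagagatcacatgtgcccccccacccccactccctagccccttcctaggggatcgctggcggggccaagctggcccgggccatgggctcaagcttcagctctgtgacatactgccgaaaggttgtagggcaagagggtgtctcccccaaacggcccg
Searched on both strands, TGATNNAT was found in 4 of the 24 windows available for 22 Hox genes (16.7%) and in 8.85% of all 32851 windows. The other windows with it were those of Hoxa2, Hoxb8 and Hoxd11, and neither Hoxb8 nor Hoxd11 passed the filter on low counts. The Meis motif TGACAG was found in 8.33% of the Hox windows and 19.2% of all, and TATAAA in 16.7% of the Hox windows and 13.6% of all. The motifs were searched independently, so that matches may overlap. These are matches of letters and carry no information on binding in these cells.

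Hoxd1, the HoxD gene of the same paralog number as Hoxb1, had 0 counts in every EE library and 3, 5 and 4 counts in PE, which is at least 3.27-fold lower in EE against a floor of 3 counts over the group (adjusted p = 0.0763 from edgeR).

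**Figure D2:**
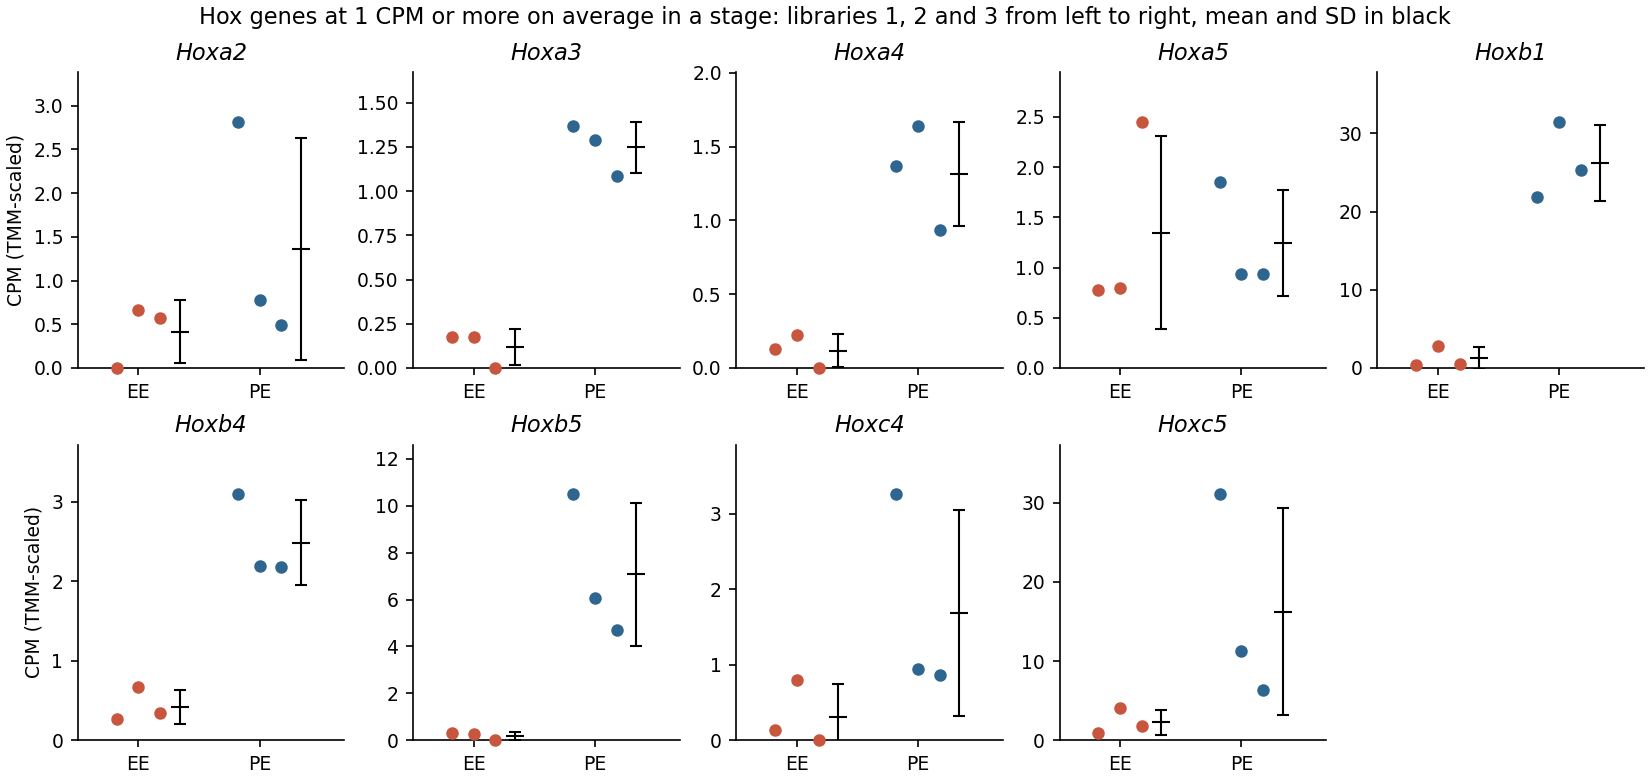
CPM of 9 Hox genes at 1 CPM or more on average in a stage, which include the 4 called, in the 3 EE libraries (red, left) and the 3 PE libraries (blue, right). Each panel has its own vertical axis from 0, points run from replicate 1 to 3, and the black marks give mean and SD, cut at 0. For Hoxb1, Hoxb4, Hoxb5 and Hoxc5 all EE libraries lie below all PE libraries, while the points of Hoxa2 and Hoxa5 overlap.

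Hoxb5, which in the mouse acts in neural crest and in vascular progenitors, had the largest fold change among the 4 called. Its level was 0.303, 0.266 and 0 CPM in EE, from 7, 6 and 0 counts, against 10.51, 6.05 and 4.68 CPM in PE, from 261, 155 and 125 counts. The highest EE library was thus far below the lowest PE library. On the log2 scale it fell by 5.11 ± 0.75 (SE, adjusted p = 0.0030 from edgeR), and by 4.61 without EE replicate 3, the library without a count. Like Hoxb1, Hoxb5 was called under every alternative and after leaving out any library.

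Hoxb4, known for its action in blood stem cells and the cervical spine, was at 0.260, 0.665 and 0.342 CPM in EE, from 6, 15 and 6 counts. PE had 3.1, 2.19 and 2.17 CPM, from 77, 56 and 58 counts. The stages did not overlap, with means of 0.423 ± 0.214 CPM in EE and 2.49 ± 0.53 CPM in PE (SD, n = 3 each). Hoxb4 fell by 2.54 ± 0.59 (SE) on the log2 scale, with an adjusted p of 0.0264 from edgeR. The call was lost without EE replicate 1 or without any 1 of the 3 PE libraries, where the adjusted p from edgeR was 0.06, 0.0916, 0.095 and 0.0902 and the log2 fold change stayed between -2.62 and -2.27.

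Hoxc5, a gene of the cervical and upper thoracic axis, was the highest gene of HoxC in both stages. It was at 0.867, 4.04 and 1.83 CPM in EE, from 20, 91 and 32 counts, and at 31.1, 11.2 and 6.37 CPM in PE, from 773, 288 and 170 counts. The stages did not overlap, but PE replicate 1 was 3.54 times the mean of the other PE libraries. Its log2 fold change was -2.85 ± 0.69 (SE), with an adjusted p of 0.0310 from edgeR. Without PE replicate 1 it was -1.97 and no longer called (adjusted p = 0.0912 from edgeR). It was -3.66 without EE replicate 2, with the call kept (adjusted p = 0.0373 from edgeR). The call was also lost without EE replicate 1 (adjusted p = 0.0798) or EE replicate 3 (adjusted p = 0.071, both from edgeR).

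Hoxa3 and Hoxa4 were just outside the limit. Hoxa3, needed for the derivatives of the pharyngeal arches such as the thymus, had 4, 4 and 0 counts in EE and 34, 33 and 29 counts in PE, or 0.173, 0.177 and 0 CPM against 1.37, 1.29 and 1.09 CPM. Hoxa4, a gene of the cervical axis, had 3, 5 and 0 counts in EE and 34, 42 and 25 counts in PE, or 0.130, 0.222 and 0 CPM against 1.37, 1.64 and 0.937 CPM. Neither overlapped between the stages. Their log2 fold changes were -3.31 ± 0.91 and -3.38 ± 0.93 (SE), with adjusted p-values of 0.0508 and 0.0505 from edgeR. Both were called with DESeq2, with limma, with the other filters, with library size alone, without EE replicate 3, and when replicate numbers were blocked (adjusted p = 0.0448 and 0.0344 from edgeR). Neither was called with RLE factors (adjusted p = 0.0513 and 0.0509 from edgeR). Leaving out any library but EE replicate 3 gave no call either. There the adjusted p from edgeR was up to 0.174 for Hoxa3 and up to 0.2 for Hoxa4. The library kit does not mark strand, so reads of a gene and of one opposite to it cannot be told apart. Other genes on the opposite strand overlap 25.4% of the exon bases of Hoxa3 and 16.0% of those of Hoxa4.

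The HoxA gene Hoxa5, which acts in lung and thoracic development, was the only tested member with a positive fold change. It was at 0.780, 0.799 and 2.45 CPM in EE and at 1.85, 0.937 and 0.937 CPM in PE, from 18, 18 and 43 counts and from 46, 24 and 25 counts. The stages overlapped, with 1 high library in each. Its log2 fold change of 0.10 ± 0.66 (SE, adjusted p = 0.945 from edgeR) turned negative with library size alone, with limma, with the replicate number as a block, and without EE replicate 3, where it was -0.65. No exon base of Hoxa5 is shared with another gene.

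Hoxa2, the selector gene of the second pharyngeal arch, was at 0, 0.665 and 0.571 CPM in EE and at 2.82, 0.781 and 0.487 CPM in PE. The stages overlapped, and PE replicate 1 was 4.45 times the mean of the other PE libraries. Hoxb2, at 0.130, 0.222 and 1.31 CPM in EE and 0.886, 0.390 and 0.412 CPM in PE, overlapped too, with a log2 fold change of -0.04 ± 0.95 (SE). The antisense gene Hoxb3os overlaps 27.3% of the exon bases of Hoxb2 and 52.9% of those of Hoxb3, so the reads of Hoxb2 and Hoxb3 are not theirs with certainty. Hoxb3 had 5, 5 and 0 counts in EE and 16, 7 and 9 in PE (adjusted p = 0.455 from edgeR).

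Hoxc4 was at 0.130, 0.799 and 0 CPM in EE and at 3.26, 0.937 and 0.862 CPM in PE. The stages did not overlap but came close to each other, and PE replicate 1 was again the highest, at 3.63 times the mean of the other PE libraries (log2 fold change -2.39 ± 1.10 SE, adjusted p = 0.214 from edgeR, with -1.50 without PE replicate 1 and -4.50 without EE replicate 2). Hoxb6 had 1, 2 and 0 counts in EE and 21, 10 and 8 in PE, a ratio of PE over EE of 10.6 with a counting interval of 3.38 to 53.8 (adjusted p = 0.0916 from edgeR). Hoxb7 was uneven in both stages, with 0, 0 and 18 counts in EE and 41, 8 and 5 in PE. All counts of Hoxb7 in EE therefore came from replicate 3.

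Genes of higher number were present in PE at very low levels. Hoxa9 had 1, 0 and 0 counts in EE and 7, 5 and 17 counts in PE (ratio of PE over EE 23.7, counting interval 3.94 to 969, adjusted p = 0.0727 from edgeR), and Hoxa10 had 0 counts in EE and 1, 4 and 7 counts in PE (at least 3.27-fold lower in EE, adjusted p = 0.104 from edgeR). Hoxd8 had 1, 0 and 0 counts in EE and 20, 7 and 1 in PE, and Hoxc8 had 0, 0 and 1 counts in EE and 15, 3 and 2 in PE. Hoxa7 had 0 counts in EE and 2 in each PE library, and Hoxc6 had 2, 0 and 0 counts in EE and 14, 0 and 1 in PE. The stages did not overlap for Hoxa7, Hoxa9, Hoxa10 and Hoxc8, and overlapped for Hoxc6 and Hoxd8. With 0 counts in EE, Hoxa7 and Hoxa10, like Hoxd1 above, could pass the filter only with a count in all 3 PE libraries. Their lack of overlap therefore followed from the filter. Hoxa9 and Hoxc8, with 1 count in EE, also had a count in all 3 PE libraries. Every EE library was below every PE library for 18.6% of all genes tested. At this depth 3 counts amount to 0.130 to 0.171 CPM in EE and 0.112 to 0.121 CPM in PE, so levels below these are not detectable with certainty.

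Of the 18 Hox genes under the filter, 7 had no count in any library. These were Hoxa13, Hoxb13, Hoxc11, Hoxc12, Hoxd4, Hoxd9 and Hoxd12. Another 10 had 1 to 9 counts, all in PE, the most in Hoxd3 with 6, 0 and 3 counts and Hoxc10 with 5 counts in replicate 3, and Hoxc13 had 1 count in EE replicate 2 and none in PE. The counts of Hoxd3 and Hoxd4 may be too low, since 62.8% of the exon bases of Hoxd3 and 52.3% of those of Hoxd4 overlap other annotated genes, of which the largest in extent, Gm28230, was at 0 in all libraries.

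**Figure D3:**
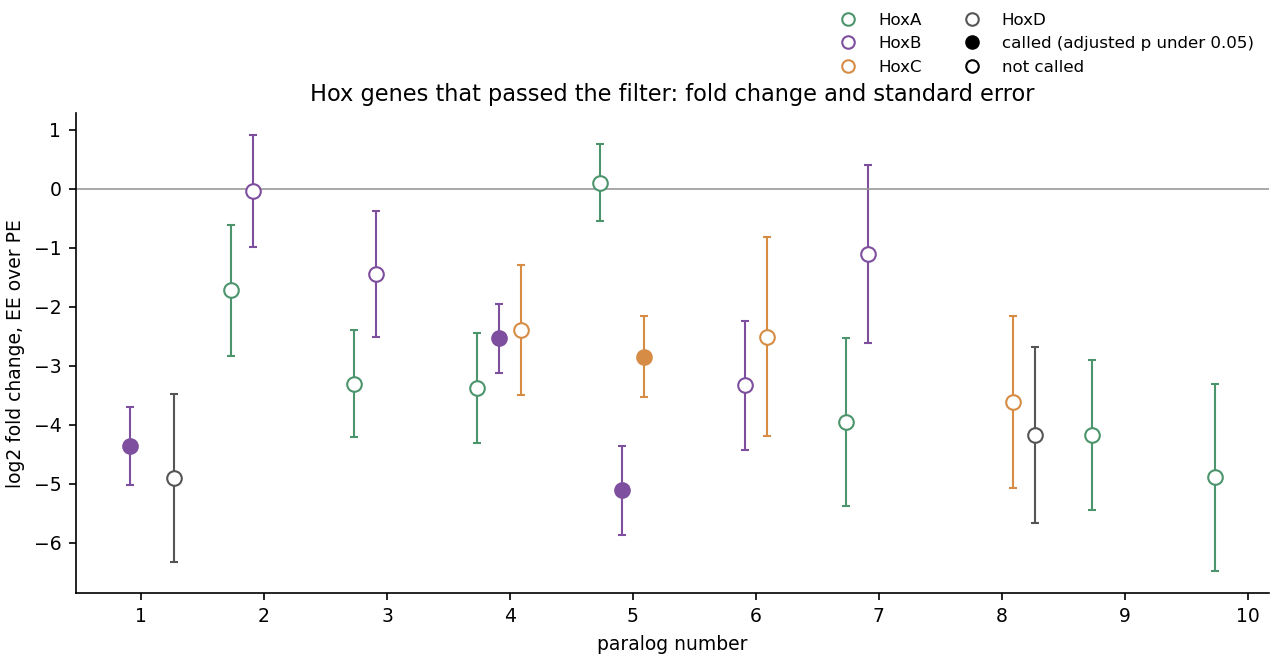
Log2 fold change (EE over PE, bars are 1 SE) of 20 Hox genes that passed the filter on low counts, by paralog number, coloured by cluster. Filled points are the 4 genes called, Hoxb1, Hoxb4, Hoxb5 and Hoxc5. Fitted values of genes with 0 to 3 counts in EE, among them all genes of number 8 to 10, depend on the prior count of the fit.

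Set out by cluster, the sums for HoxB and HoxC were as follows. HoxB summed to 1.34, 4.30 and 3.20 CPM in EE and to 39.6, 41.2 and 33.4 CPM in PE, a mean 12.9-fold higher in PE. HoxC summed to 1.08, 4.88 and 1.88 CPM in EE and to 35.6, 12.4 and 7.53 CPM in PE, a mean 7.07-fold higher in PE, which was 3.81-fold without PE replicate 1 and 12.5-fold without EE replicate 2. Neither overlapped between the stages. HoxD had 1 count in all EE libraries together and 29, 13 and 12 counts in PE. Of the tested genes, 0 of 8 in HoxA, 3 of 7 in HoxB, 1 of 4 in HoxC and 0 of 2 in HoxD were called lower in EE, beside 4.86% of all genes tested. In HoxA, Hoxa3 and Hoxa4 were just outside the limit, as given above.

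Of the summed level per kb of all Hox genes, HoxB took 21.3 ± 5.6% in EE and 56.9 ± 10.2% in PE, and HoxC took 14.9 ± 6.3% in EE and 19.6 ± 11.3% in PE (SD, n = 3 each). The share of HoxB did not overlap between the stages, and that of HoxC did. Most of the share of HoxB in PE belonged to 1 gene, Hoxb1, which took 5.2%, 16.6% and 4.0% in EE against 26.0%, 49.2% and 49.4% in PE. Hoxa5 took 12.8%, 5.8% and 23.8% in EE and 2.7%, 1.8% and 2.3% in PE.

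Along the clusters, the levels were summed over 3 classes of paralog numbers. Of the summed level per kb, numbers 1 to 3 took 60.3 ± 8.5% in EE and 59.6 ± 14.2% in PE (SD, n = 3 each). Numbers 4 to 8 took 39.6 ± 8.6% in EE and 39.6 ± 14.8% in PE, and numbers 9 to 13 took 0.161 ± 0.139% in EE and 0.817 ± 0.827% in PE (SD, n = 3 each). The 3 classes had 479, 316 and 2 counts in EE and 2972, 2454 and 57 counts in PE. Of the tested genes of these classes, 1 of 7, 3 of 12 and 0 of 2 were called lower in EE, beside 4.86% of all genes tested. Most of them passed the filter through PE, as given above. The mean paralog number, weighted by the level per kb, was 2.41, 2.42 and 3.34 in EE and 3.38, 2.38 and 2.31 in PE. The means of 2.72 ± 0.53 in EE and 2.69 ± 0.60 in PE (SD, n = 3 each) differed by 0.033, far less than the spread within a stage, with these weights. With log weights they were 2.99 ± 0.41 in EE and 3.35 ± 0.30 in PE (SD, n = 3 each), a difference of the other sign. One library of each stage, EE replicate 3 and PE replicate 1, lay about 1 number above the others. A count in all 3 libraries reached up to Hoxa5, Hoxb4 and Hoxc5 and no HoxD gene in EE, and up to Hoxa10, Hoxb7, Hoxc8 and Hoxd8 in PE, a limit that moves with the level at a given depth.

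The PE libraries differed among themselves. PE replicate 1 was the highest PE library for 16 of the 21 tested Hox genes, while 37.1% of all genes tested were highest there. Its ratio to the mean of the other PE libraries was 6.61 for Hoxb7, 6.29 for Hoxc8, 4.45 for Hoxa2, 3.63 for Hoxc4 and 3.54 for Hoxc5, but 0.772 for Hoxb1. Numbers 9 to 13 went the other way, with 8 counts in PE replicate 1, 13 in replicate 2 and 36 in replicate 3. The same library was high for Crabp1, a retinoic acid binding protein (132 CPM, against 45.5 and 23.7 in the other PE libraries), for Meis3 (67.3, against 26.0 and 32.1) and for Osr1, a marker of intermediate and lateral mesoderm (32.9, against 12.2 and 20.7). It was also the highest PE library for the liver bud markers, which summed to 6965 CPM there and to 3771 and 4328 CPM in the others. Whether PE replicate 1 held more tissue from elsewhere along the axis was not tested.

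Hox genes are also active in tissues that border the PE, so the markers of such tissues are given here. Of 10 markers of neural tube and neural crest, 6 had no count in any library, and Sox2, Sox10 and Pax6 were at most at 0.133, 0.177 and 0.355 CPM in EE and at 0.375, 0.375 and 1.27 CPM in PE. The remaining marker was Tubb3, called higher in EE, at 160, 293 and 332 CPM in EE and 28.1, 39.9 and 58.4 CPM in PE. Markers of paraxial mesoderm summed to 0.737 to 2.35 CPM in EE and 4.55 to 5.35 CPM in PE, most of it from Meox1, the 1 of 3 tested that was called lower in EE. Markers of intermediate mesoderm and limb summed to 10.7 to 22.4 CPM in EE and 26.4 to 49.2 CPM in PE, with Osr1 and Lmx1b called lower in EE among 7 tested. Markers of sinus venosus and septum transversum, the tissues from which the PE arises, summed to 111 to 180 CPM in EE and 237 to 257 CPM in PE, with 1 of 8 called higher and 5 lower in EE. Markers of endothelium and endocardium summed to 214 to 377 CPM in EE and 305 to 427 CPM in PE, with 1 of 10 called higher and 6 lower in EE. Cardiomyocyte markers summed to 6372 to 8791 CPM in EE and 2753 to 3733 CPM in PE, with 5 of 10 called higher in EE and none lower. Over all genes tested, 4.52% were called higher in EE and 4.86% lower. The part of these tissues in the Hox levels was not tested.

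Hox proteins bind DNA together with TALE homeodomain proteins of the Pbx, Meis and Pknox families. Of the 9 genes, all tested, 2 were called lower in EE and none higher, where 4.86% of all genes tested were lower and 4.52% higher. DESeq2 called 5 of the 9 lower and none higher, and 1924 lower and 1734 higher over all genes. Pbx3 was at 30.0, 27.1 and 18.1 CPM in EE and 49.3, 60.7 and 59.2 CPM in PE (log2 fold change -1.17 ± 0.24 SE, adjusted p = 0.017 from edgeR). Meis3 was at 8.24, 20.4 and 8.56 CPM in EE and 67.3, 26.0 and 32.1 CPM in PE (log2 fold change -1.75 ± 0.46 SE, adjusted p = 0.042 from edgeR). The stages did not overlap for either. The call of Pbx3 was lost without EE replicate 2, PE replicate 2 or PE replicate 3, with an adjusted p of up to 0.0702 from edgeR. That of Meis3 was lost without EE replicate 1 or 3 or PE replicate 1 or 3, with an adjusted p of up to 0.111 from edgeR and log2 fold changes over all leave-outs between -2.36 and -1.22. Meis1 was at 87.3 to 131 CPM in EE and at 145 to 198 CPM in PE, and Meis2 at 60.2 to 67.7 CPM in EE and 38.4 to 48.7 CPM in PE. The stages did not overlap for either, in opposite directions, and neither was called (adjusted p = 0.085 and 0.099 from edgeR).

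Retinoic acid activates Hox genes of low number through receptors bound near them. Of 17 tested genes of its synthesis, transport, reception and breakdown, 2 were called higher and 4 lower in EE, beside 4.52% and 4.86% of all genes tested. The higher ones were the synthesis enzymes Aldh1a1, at 369, 406 and 437 CPM in EE and 16.6, 16.9 and 20.5 CPM in PE, and Aldh1a2, at 124, 102 and 97.3 CPM in EE and 26.4, 9.10 and 9.97 CPM in PE. Aldh1a2 is also one of the epicardial markers above. Both were called after every leave-out. The lower ones were the binding protein Crabp2, at 14.1, 52.3 and 42.2 CPM in EE and 174, 222 and 190 CPM in PE, the uptake receptor Stra6, the nuclear receptor Rara and the breakdown enzyme Cyp26a1. The call of Crabp2 was kept after every leave-out. That of Stra6 was lost without EE replicate 1 or 3 or PE replicate 1 or 2 (adjusted p up to 0.116 from edgeR), and that of Rara without EE replicate 2 or PE replicate 2 (adjusted p up to 0.0584 from edgeR). Cyp26a1 was at 0 in all EE libraries and at 3.42, 1.64 and 1.09 CPM in PE. Of the other genes of its synthesis, Aldh1a3 was at 2.47, 1.15 and 1.88 CPM in EE and 0.483, 0.508 and 0.337 CPM in PE and was not called (adjusted p = 0.065 from edgeR). Rdh10, which makes the precursor retinal, overlapped between the stages (log2 fold change -0.39 ± 0.54 SE). The relation of these genes to the Hox levels was not tested.

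Polycomb complexes keep Hox genes silent outside their domains, and Trithorax and Mll proteins keep them active. Of 18 Polycomb genes, 1 was called higher in EE and 3 lower, beside 4.52% and 4.86% of all genes tested. Those called lower were Ezh1, Jarid2 and Cbx2. Cbx2 was at 14, 17.8 and 11.8 CPM in EE and 39.3, 36.9 and 31.3 CPM in PE. The call of Cbx2 was kept after every leave-out. That of Ezh1 was lost without EE replicate 2 or 3 or PE replicate 2 or 3 (adjusted p up to 0.173 from edgeR), and that of Jarid2 without any library but PE replicate 1 (adjusted p up to 0.224 from edgeR). The core genes Ezh2, Eed and Suz12 overlapped between the stages. None of 11 Trithorax and Mll genes was called by edgeR or limma, while DESeq2 called Rbbp5 lower in EE. An unadjusted p under 0.05 from edgeR was reached by 4 of the 11, beside 25.1% of all genes tested. Of the known upstream activators, Cdx1, Cdx2 and Cdx4 had no more than 0.187 CPM in any library. Egr2, which activates Hox genes in the hindbrain and is also an immediate early gene, was called higher in EE, at 42.1, 8.16 and 17.4 CPM in EE and 0.201, 0.0781 and 0.0749 CPM in PE.

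The Hox clusters also hold miRNA genes, of which miR-10 and miR-196 are known to repress Hox genes. The miRNAs with counts in all libraries of a stage are shown with the seed, bases 2 to 8, in capitals (RefSeq, GRCm38.p6).
miR-10a-5p: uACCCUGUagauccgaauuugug
miR-10b-5p: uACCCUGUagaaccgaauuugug
miR-615-3p: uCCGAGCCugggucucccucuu
miR-615-5p: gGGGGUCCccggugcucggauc
miR-10a-5p (chr11:96317186-96317208) lies between Hoxb5 and Hoxb4, 1059 bases from Hoxb4. miR-10b-5p (chr2:74726074-74726096) lies in introns of Hoxd3 and Hoxd4. It has the seed of miR-10a-5p and differs from it at 1 of 23 bases, U12A, counted from the 5′ end. Both arms of miR-615 (chr15:103014926-103014947 and chr15:103014969-103014990) lie in an intron of Hoxc5. All lie on the strand of these Hox genes.

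Of 11 mature arms encoded in the clusters, 6 had a count and 4 passed the filter, which required a count in all 3 libraries of a stage. Of these, 2 were called lower in EE and none higher, while 28.1% of all 295 miRNAs tested were called lower in EE and 3.73% higher. Only miR-10a-5p had a count in all 3 EE libraries, so the other tested arms, both called ones among them, passed through PE alone. The calls thus describe these arms and are not evidence of a direction. For miR-615-5p, with 0 counts in EE, the lack of overlap between the stages followed from the filter. miR-10b-5p had 1, 0 and 0 counts in EE and 418, 121 and 65 counts in PE, a ratio of PE over EE on the CPM scale of 258 with a counting interval of 46.1 to 10195 (adjusted p = 0.0276 from edgeR). It was nearly absent from EE and uneven in PE, and the call was lost without PE replicate 1 (adjusted p = 0.0663 from edgeR). miR-615-5p had 0 counts in EE and 6, 5 and 7 counts in PE, at least 2.56-fold lower in EE (adjusted p = 0.0276 from edgeR), a call that was lost with DESeq2, with the replicate number as a block (adjusted p = 0.262 from edgeR), without a filter and without any of EE replicates 1, 2 and 3 or PE replicate 1. The PE levels of 40.9 to 65.1 CPM are close to what 3 counts amount to in the shallow EE libraries, 49.9 to 73.6 CPM.

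The other arms behaved differently. miR-10a-5p, which shares its seed with miR-10b-5p, had 32, 32 and 29 counts in EE and 316, 65 and 32 counts in PE. On the CPM scale this was 532, 583 and 712 in EE and 2154, 585 and 298 in PE, so that the stages overlapped, and the log2 fold change of -0.73 ± 1.00 (SE, adjusted p = 0.622 from edgeR) became 0.44 without PE replicate 1. miR-615-3p, the other arm of the miR-615 hairpin, had 36, 46 and 0 counts in EE and 136, 73 and 48 counts in PE (log2 fold change -0.49 ± 1.46 SE, adjusted p = 0.816 from edgeR). The absence from EE replicate 3 set its sign, since it was 0.10 without that library. miR-10a-3p with 6 counts and miR-196b-5p with 4 were found in PE replicate 1 alone, and miR-196a-5p had no count.

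**Figure D4:**
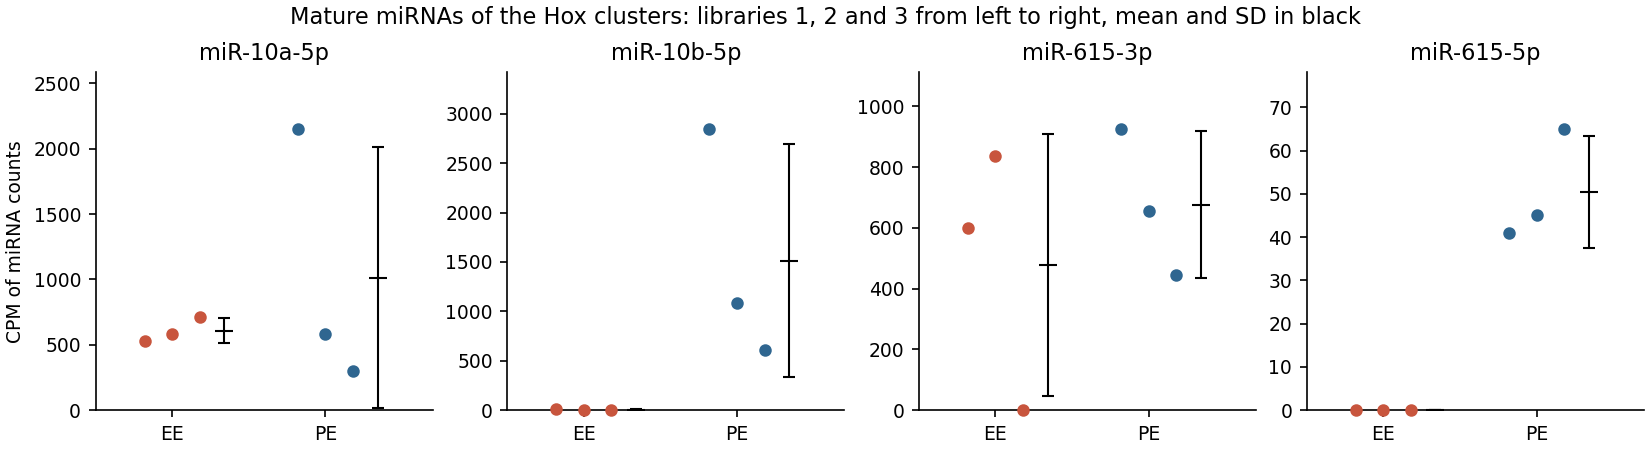
CPM of the 4 tested mature miRNAs of the Hox clusters in the 3 EE libraries (red, left) and the 3 PE libraries (blue, right), points from replicate 1 to 3, with mean and SD in black, cut at 0. miR-10b-5p and miR-615-5p are at or near 0 in EE and present in each PE library, while miR-10a-5p and miR-615-3p overlap between the stages.

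The host gene and the miRNA did not always have the same level. miR-10b-5p was present in all PE libraries although Hoxd4 had no count in any and Hoxd3 had 6, 0 and 3 counts in PE. Both host counts may be too low, since other annotated genes overlap 62.8% of the exon bases of Hoxd3 and 52.3% of those of Hoxd4. The miRNAs and their hosts were also measured in different assays. For miR-615-3p the stages overlapped, while its host Hoxc5 and miR-615-5p were called lower in EE, and the difference between miR-615-3p and these was not tested. As with most tested Hox mRNAs, PE replicate 1 was the highest PE library for miR-10a-5p, miR-10b-5p and miR-615-3p. The remaining tested arm, miR-615-5p, was lowest there on the CPM scale, at 0.743 times the mean of the other PE libraries. The relatives miR-99a-5p, miR-99b-5p and miR-100-5p, encoded outside the clusters and given below, were also highest in PE replicate 1. Whether the excess in this library was particular to miRNAs of the Hox clusters was not tested. Whether the small RNA and mRNA libraries of a number came from the same pool is not given in the sources used here.

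The seed match of miR-10, ACAGGGT on the sense strand, was found in the 3′ UTR of 4 of the 39 Hox genes (10.3%) and of 13.1% of 21028 protein-coding genes. The sites of 3 of them are shown with the match in capitals.
Hoxa3: ctctttgataagaaACAGGGTat
Hoxb3: gacttaacgtgaaaACAGGGTat
Hoxd1: agcggaacaaatccACAGGGTag
These are matches to letters, and repression at them was not measured. None of the 4 genes called, Hoxb1, Hoxb4, Hoxb5 and Hoxc5, had the match.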

How the data were processed

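The authors deposited whole-number, not normalized counts per gene and per mature miRNA. STAR, featureCounts and Trim Galore 0.4.3.1 stand in their processing notes, with the build mm10. The paper names RSEM for mRNA. The mRNA kit does not mark strand. Samples were grouped by the labels, and EE columns, named EPDC in the tables, were read as EE by number. Members and lists were chosen with earlier results of these data known.

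The counts were scaled with TMM and compared with edgeR 4.0.16 (R 4.3.3), for genes with a count in 3 or more of the 6 mRNA libraries and miRNAs with a count in all 3 small RNA libraries of a stage. The SE of a fold change is the absolute log2 fold change divided by the square root of the F statistic of the edgeR test. It was thus calculated back from the test and not taken from the fitted model. A floor of 3 counts stands for a count of 0. Intervals and floors cover counting error only. Small RNA libraries held 35576 to 56842 counts in EE and 119708 to 152075 in PE. Exon lengths and overlaps came from GENCODE for GRCm38. The steps were tested on simulated data. Figures were drawn with matplotlib 3.10.9.

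Values per library were given for Hox genes at 1 CPM or more on average in a stage or called, and counts for the others. Of each list, up to 4 called members with the highest level were named, and others were named after their values were seen. Alternatives were DESeq2 1.42.0, RLE factors, library size alone, filterByExpr, no filter, a block for the replicate number, leaving out 1 library at a time, and limma 3.58.1 on log2(normalized count + 1). Some genes are not reported here.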

Additional observations from a re-analysis of the deposited data

How the results depend on the processing

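Of the 4 Hox genes called lower in EE, Hoxb1 and Hoxb5 were called under every alternative and leave-out. The number called lower was 9 with limma, which added Hoxa3, Hoxa4, Hoxa9, Hoxb6 and Hoxd1, and between 2 and 5 when 1 library was left out, with 2 without EE replicate 1 or PE replicate 1. It was 6 with the replicate number as a block, although same-numbered libraries did not deviate together (correlations -0.02, 0.03 and 0.01). No alternative called a Hox gene higher in EE. Over all genes, DESeq2 called 1924 lower and 1734 higher, and leaving out 1 library gave 470 to 1100 lower and 563 to 1160 higher. Of the Hox cluster miRNAs, 1 was called with DESeq2, filterByExpr, no filter and the replicate block, and 0 to 2 with 1 library left out. The log2 fold change of Hoxa5 was -0.0304 with library size alone, -0.0305 with the replicate block and -0.0245 with limma, and ranged from -0.65 to 0.51 over the leave-outs. Over the leave-outs that of Hoxb2 ranged from -1.65 to 0.44, that of Hoxb7 from -7.14 to 0.41, that of miR-10a-5p from -1.40 to 0.44 and that of miR-615-3p from -1.16 to 0.10. The weighted mean paralog number, EE minus PE, was -0.10 with CPM weights and -0.36 with log weights, and ranged from -0.27 to 0.38 over the leave-outs. The causes were not tested. Depth limits the genes of number 6 and above, with 3 or fewer counts in EE for all but Hoxb7.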

Other observations

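Genes that lie next to the Hox clusters are given for comparison. Of 12 flanking genes in the table, 8 were tested and edgeR called none in either direction, with 1, Skap1, at an unadjusted p under 0.05. Over all genes tested, edgeR called 4.86% lower and 4.52% higher in EE, and 25.1% had an unadjusted p under 0.05. Skap2, next to HoxA, was at 48.4, 47.7 and 64.1 CPM in EE and at 49.6, 52.4 and 58.3 CPM in PE, and Lnpk, near HoxD, at 48.7, 81.3 and 53.2 CPM in EE and 33.4, 50.9 and 54.5 CPM in PE. Cbx5, near HoxC, was at 483, 485 and 525 CPM in EE and 397, 668 and 584 CPM in PE. These 3 genes overlapped between the stages. Skap1, next to HoxB, was at 0, 0.488 and 0 CPM in EE and 1.69, 1.72 and 2.40 CPM in PE (adjusted p = 0.093 from edgeR), and was called lower in EE by DESeq2 and limma. Evx1 and Evx2, homeobox genes at the ends of HoxA and HoxD, had no count in any library.

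Other genes inside the clusters, mostly noncoding and antisense, were low in both stages. Of 13 tested, 1, 5730596B20Rik, was called lower in EE, beside 4.86% of all genes tested. It had 1, 3 and 0 counts in EE and 58, 18 and 29 counts in PE, and it lies opposite Hoxa3. This call was lost without EE replicate 1, PE replicate 1 or PE replicate 3. Hoxb5os, antisense to Hoxb5, had 0 counts in EE and was at 0.564, 0.156 and 0.225 CPM in PE (adjusted p = 0.055 from edgeR). Haglr, in HoxD, was at 0.347, 0.399 and 0.571 CPM in EE and 0.846, 0.859 and 0.749 CPM in PE. Hotair and Hottip had no count in any library.

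The 3 relatives of miR-10 given here are encoded outside the Hox clusters and have the seed ACCCGUA. miR-99a-5p (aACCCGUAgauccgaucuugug, seed in capitals, RefSeq, GRCm38.p6, chr16:77598940-77598961) was at 8210, 10216 and 14676 CPM in EE and at 6913, 4655 and 2772 CPM in PE, with every EE library above every PE library, but was not called (log2 fold change 1.21 ± 0.44 SE, adjusted p = 0.072 from edgeR). miR-100-5p (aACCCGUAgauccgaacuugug, chr9:41531437-41531458) overlapped between the stages, at 4504, 2932 and 7436 CPM in EE and 6893, 2944 and 2800 CPM in PE. miR-99b-5p overlapped too, at 34470, 21269 and 15855 CPM in EE and 31225, 30019 and 24509 CPM in PE (log2 fold change -0.26 ± 0.30 SE). The difference between these miRNAs and miR-10b-5p in their response was not tested.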
